A study of Mus musculus with 2 samples.

Results

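The type I interferon response genes are a set of 39 mouse genes that cells switch on when type I interferon binds its receptor. All 39 symbols were found once among the 33696 features counted in both libraries of the series, and no other gene was added. The cells came from LLC tumours, a Lewis lung carcinoma line, labelled as murine tumour-infiltrating lymphocytes. The WT library came from wild-type mice and the KO library from Dusp2-/- mice, which lack Dusp2, a nuclear phosphatase that switches off MAP kinases. Both were made with the 10x Chromium 3' kit and carried no treatment in their labels, where the molecule is entered as total RNA (WT) or as polyA RNA (KO). For the age and sex of the mice, the number pooled, the sort and the deleted part of Dusp2 the sources used here give nothing.

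Type I interferons, the interferon alphas and interferon beta, bind the receptor chains Ifnar1 and Ifnar2, and the kinases Jak1 and Tyk2 then phosphorylate Stat2. With Irf9 it acts in the complex ISGF3, which binds the interferon-stimulated response element in front of its target genes. The products block virus entry, RNA translation and replication, sense foreign nucleic acid, and include Usp18, a brake on the receptor. In tumours the response is known from myeloid cells, dendritic cells and T cells as well as from the cancer cells themselves.

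Each genotype is 1 library, so no difference given here has a replicate check, no test between genotypes was made, and genotype cannot be told apart from animal, tumour or library preparation. The WT library kept 9765 cells with a median of 8598 UMIs, and the KO library 12636 cells with a median of 4796. Cells were assigned to 13 classes by marker genes, none of them a member of the interferon set, and a class was compared where it had at least 20 cells in both libraries, which held for 12 classes. The B-like class, with 13 WT and 3720 KO cells, was the exception, and levels only are given for it. Gates left 26.5% of WT and 29.2% of KO cells in no class. Levels are in CPM, the share of a class's UMIs that a gene holds, scaled to counts per 1e6. Each interval is a 95% interval of counting error alone, and because the UMIs of a cell are not independent the counts of cells and the largest single cell are given where they matter. In CD8 T-like cells Dusp2 itself had 577 CPM in the WT and 6.8 in the KO library, and 132 and 1.1 in monocyte-like cells, but 78.1 and 76.7 in tumour-like cells, which derive from the grafted line.

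The promoters of 5 members on which the results turn are shown first, because they carry the element that gives the set its name. Isg15 encodes the ubiquitin-like protein ISG15, Ifit1 and Ifit3 bind foreign RNA or partner each other, Rsad2 encodes viperin, which makes a chain-terminating nucleotide, and Bst2 encodes tetherin, which holds budding virus at the cell surface. Each line gives the 170 bases from 200 to 31 bases before the start, from RefSeq on GRCm38.p6, written 5′ to 3′ on the strand of the gene. Capitals mark every match to the interferon-stimulated response element, spelled as GAAA, any 2 bases, GAAA, read on either strand (TTTC, any 2 bases, TTTC on the other), and overlapping matches run together. The stretches lie at chr4:156200849-156201018 for Isg15, chr19:34640689-34640858 for Ifit1, chr19:34583329-34583498 for Ifit3, chr12:26456483-26456652 for Rsad2 and chr8:71537503-71537672 for Bst2. Isg15, Rsad2 and Bst2 are on the minus strand, Ifit1 and Ifit3 on the plus strand.
Isg15: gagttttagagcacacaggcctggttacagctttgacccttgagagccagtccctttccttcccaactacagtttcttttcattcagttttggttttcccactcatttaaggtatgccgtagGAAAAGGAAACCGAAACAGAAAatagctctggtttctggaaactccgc
Ifit1: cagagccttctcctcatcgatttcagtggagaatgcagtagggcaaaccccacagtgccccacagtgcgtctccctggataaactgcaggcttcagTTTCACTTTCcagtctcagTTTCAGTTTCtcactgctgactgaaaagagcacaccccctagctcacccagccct
Ifit3: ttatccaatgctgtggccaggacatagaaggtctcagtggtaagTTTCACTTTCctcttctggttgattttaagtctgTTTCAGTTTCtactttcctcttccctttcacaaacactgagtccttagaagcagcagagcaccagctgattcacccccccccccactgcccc
Rsad2: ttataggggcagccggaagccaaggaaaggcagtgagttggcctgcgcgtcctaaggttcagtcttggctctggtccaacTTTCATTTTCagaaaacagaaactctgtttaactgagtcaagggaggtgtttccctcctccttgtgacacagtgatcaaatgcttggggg
Bst2: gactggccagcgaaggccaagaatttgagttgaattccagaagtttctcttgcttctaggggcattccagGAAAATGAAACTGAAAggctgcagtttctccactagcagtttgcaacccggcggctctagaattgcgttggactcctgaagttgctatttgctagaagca

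Isg15 holds 3 overlapping matches between 78 and 66 bases before its start, Ifit1 has 2 at 104 and 85 bases, Ifit3 has 2 at 156 and 122 bases, Bst2 has 2 at 130 and 124 bases, and Rsad2 has 1 at 120 bases. The motif was searched in windows of 300 bases, from 250 before to 50 after each start. It was present in 1131 of 32851 windows of all genes (3.44%) and in 21 of 36 windows of members. By gene it was in 1079 of 27025 genes (3.99%) and in 18 of the 29 members with a window (62.1%). A match describes the letters of the window and is no evidence of binding in these cells. Windows of Mx1, Oas2, Usp18, Rtp4, Zbp1, Parp14, Parp9, Ifi27l2a, Ifi204 and Dhx58 were not found. Several members are neighbours in GENCODE M21. The 5 Ifit genes lie within 99.32 kb of chromosome 19, from 34550694 to 34650009, and Rsad2 and Cmpk2 within 37.09 kb of chromosome 12, from 26442746 to 26479837. Ifit3 with Ifit3b, Ifit1 with Ifit1bl1, Phf11b with Phf11d, and Ifi203 with Ifi204 are close copies whose reads the counting could split, so the values of each pair are uncertain.

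The summed level of the set was highest in monocyte-like cells in WT and in plasmacytoid dendritic-like cells in KO.  Summed over the 39 members, the level was 5563 CPM in WT and 4789 in KO monocyte-like cells, and 4533 and 5627 in plasmacytoid dendritic-like cells, where Bst2 alone gave 2991 and 3714. Regulatory T-like cells had 4006 and 3128 CPM, conventional CD4 T-like cells 3023 and 2599, C1q macrophage-like cells 2742 and 2642, and CD8 T-like cells 1717 and 1579. Neutrophil-like cells, few in number, had 4526 and 2633 CPM. Fibroblast-like cells had 1893 and 2204, conventional dendritic-like cells 1527 and 1123, and gamma-delta T-like cells 1406 and 910. In tumour-like cells the sums were 940 and 1137, and in NK-like cells 826 and 1060. Of the 39 members, 22 had their highest level in the same class in both libraries. In WT that class was monocyte-like for 13 members, neutrophil-like for 9, regulatory T-like for 7 and plasmacytoid dendritic-like for 4. In KO it was monocyte-like for 8, neutrophil-like for 8 and plasmacytoid dendritic-like for 7. Many of these ranks were not clear of the second class. The intervals of the highest and second class did not overlap for 7, 6, 2 and 3 members in WT, in the order given. In KO that held for 4 monocyte-like, 1 neutrophil-like and 3 plasmacytoid dendritic-like members. How often all features are highest in these classes was not counted. The counts by class therefore describe the members and cannot be called particular to the set.

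**Figure D1:**
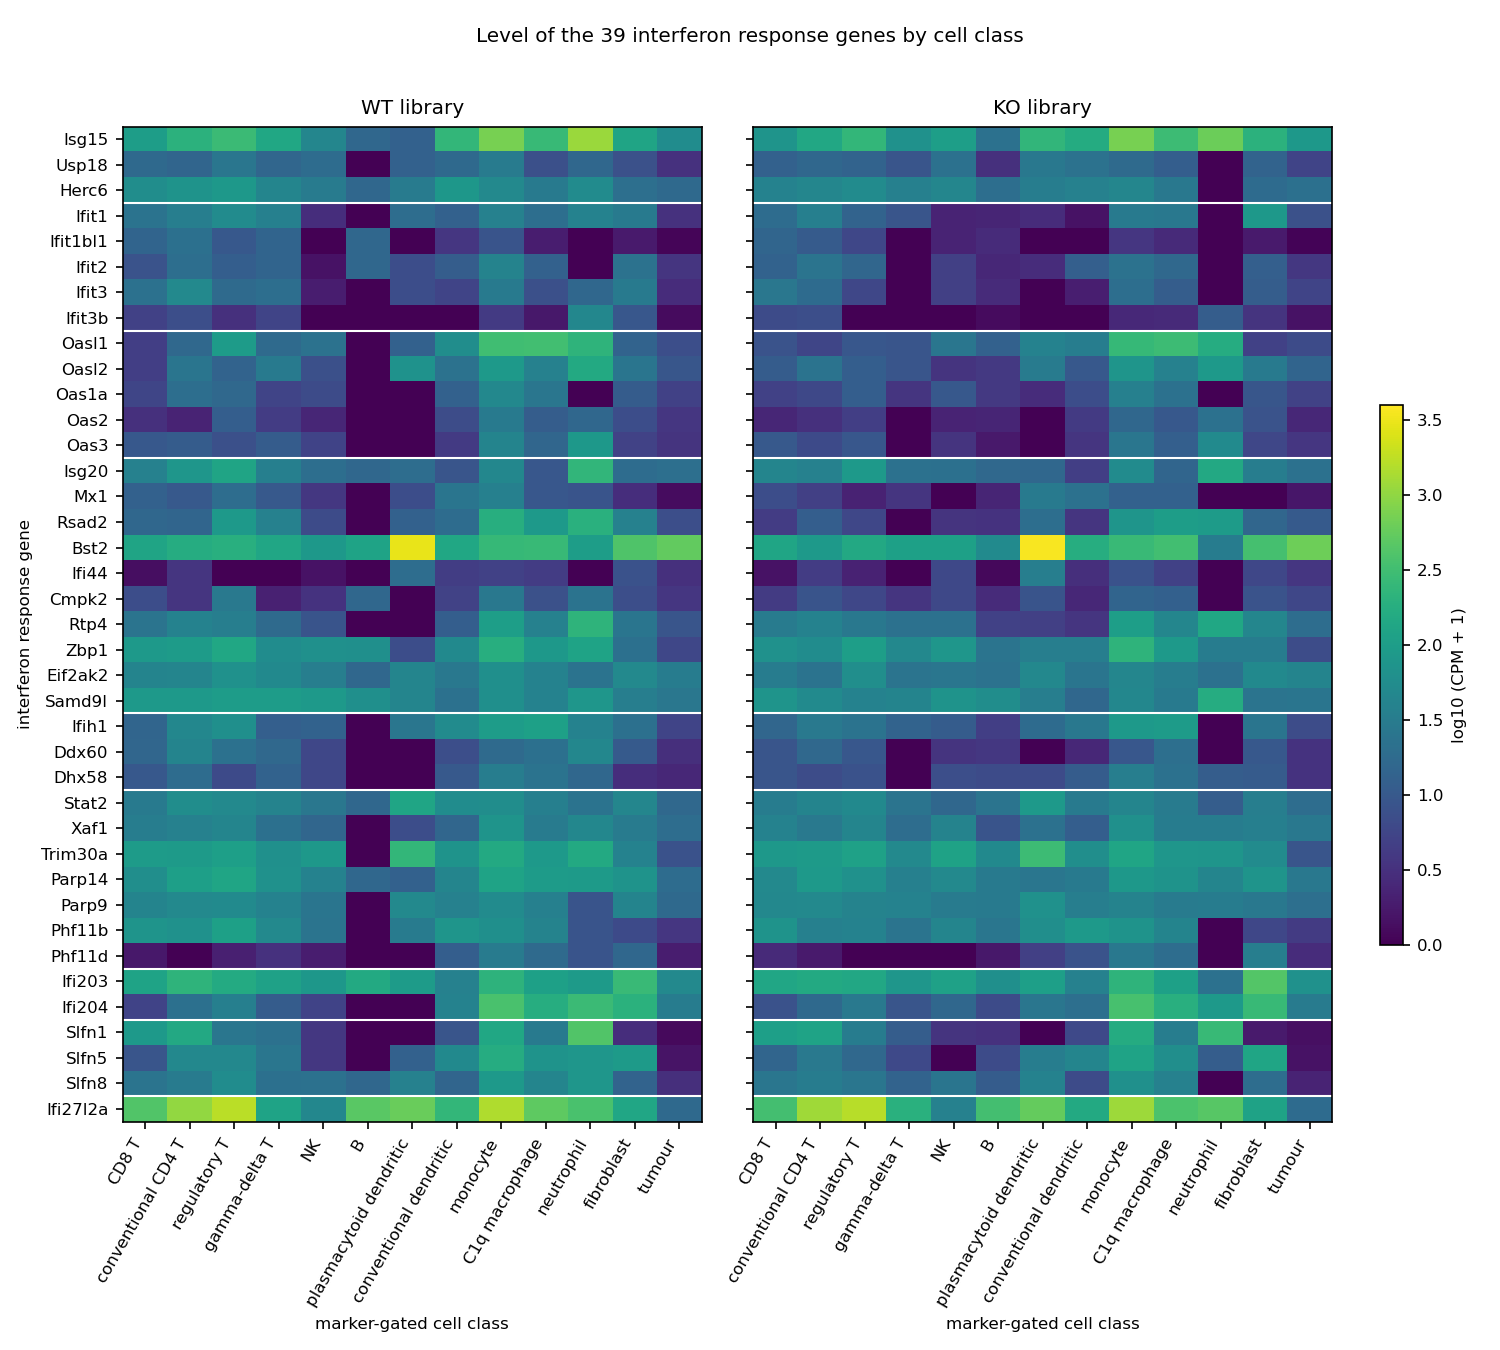
Heat maps of the level of each of the 39 members (rows, by role) in 13 marker-gated classes (columns), as log10 of CPM plus 1, with WT on the left and KO on the right. Brighter colours are higher levels. Monocyte-like columns (summed level 5563 CPM in WT and 4789 in KO) are brighter than NK-like and tumour-like columns for most rows in both panels.

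Cells were also compared by how many members they carried. A cell was called strongly responding if at least 5 of the 39 members had a UMI after its UMIs were thinned to 2000, which makes cells of different depth comparable. In monocyte-like cells 481 of 917 WT cells (52.5%) and 124 of 248 KO cells (50%) were strong, a difference of -2.45 percentage points for KO minus WT (-9.42 to 4.52). In C1q macrophage-like cells the share was 30.6% in WT (908 of 2972) and 29.0% in KO (319 of 1099), a difference of -1.53 points (-4.63 to 1.67). CD8 T-like cells had 15.8% (68 of 430) and 14.3% (94 of 657), a difference of -1.51 points (-6.00 to 2.76). In these 3 classes the interval of the difference included 0.

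Regulatory T-like cells had 33.3% strong cells in WT (42 of 126) and 21.5% in KO (26 of 121), lower by 11.8 points in KO (difference -11.8, interval -22.6 to -0.692). Tumour-like cells went the other way, with 1.59% in WT (14 of 882) and 3.41% in KO (28 of 822), a difference of 1.82 points (0.335 to 3.42). These were the only compared classes whose interval excluded 0. The regulatory T-like difference was -1.36 points (-7.93 to 5.23) when at least 8 members were asked for. In fibroblast-like cells the share was 18.6% and 24.3%, a difference of 5.75 points (-3.37 to 15.7), and in NK-like cells 2.39% and 5.04%, a difference of 2.64 points (-0.676 to 7.76). When the gates were read on the thinned cells, the differences in tumour-like and fibroblast-like cells turned to -1.09 and -4.17 points. B-like cells of the KO library give a low reference, with 82 strong cells of 3158 (2.60%), so the shares in NK-like and tumour-like cells were near that of B-like cells.

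**Figure D2:**
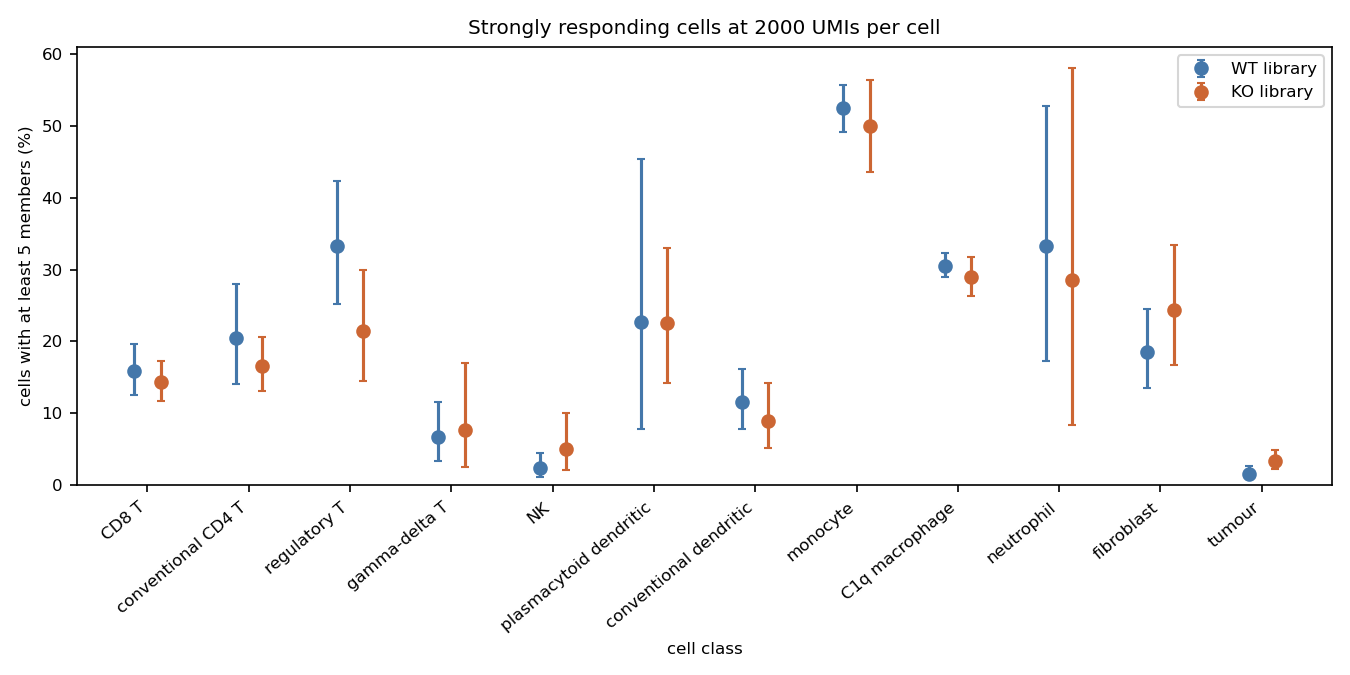
Share of cells (percent, y axis) with at least 5 of the 39 members detected after thinning to 2000 UMIs, by class, for WT and KO, with exact Clopper-Pearson 95% intervals. Monocyte-like cells are highest (52.5% in WT and 50% in KO), and regulatory T-like cells are at 33.3% in WT and 21.5% in KO.

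The median number of members detected per thinned cell was 5 members in WT and 4.5 in KO monocyte-like cells, 3 and 3 in C1q macrophage-like cells, 3 and 3 in regulatory T-like cells, 2 and 2 in CD8 T-like cells, and 1 and 1 in both NK-like and tumour-like cells. At least 10 members were detected in 15.4% of WT and 14.5% of KO monocyte-like cells. At least 15 were detected in 6.22% of WT (57 of 917) and 2.02% of KO (5 of 248).

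**Figure D3:**
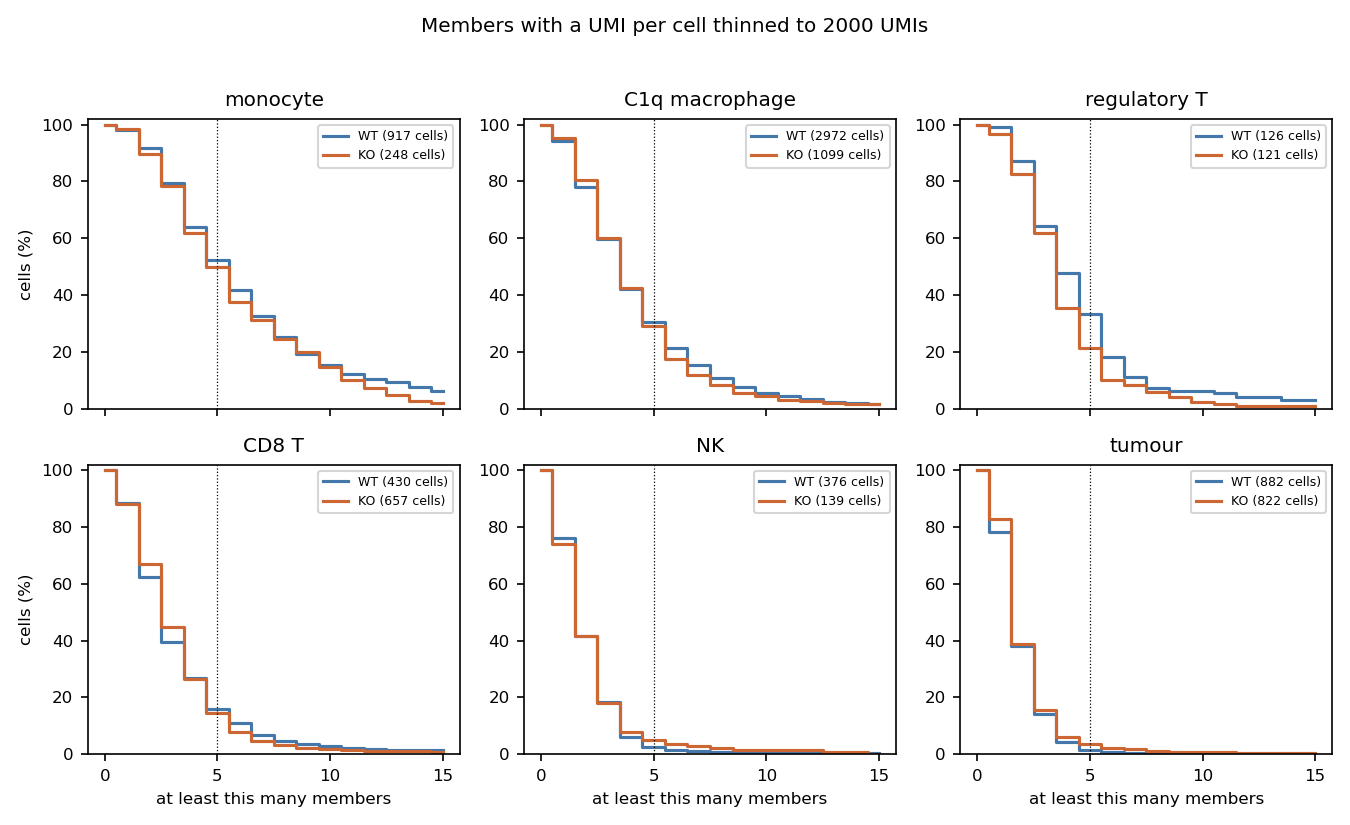
Percent of cells (y axis) in which at least n of the 39 members (x axis) had a UMI after thinning to 2000 UMIs, for WT and KO in 6 classes. The WT and KO curves of monocyte-like cells run close together up to 10 members (15.4% and 14.5%). At 15 members they stand at 6.22% and 2.02%. The WT curve of regulatory T-like cells lies above that of KO at 5 members.

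Across classes the members did not move as a block between genotypes. A member counts as measured in a class with at least 30 UMIs over both libraries, and its KO over WT ratio is given as log2. The median log2 over measured members was above 0 in 6 classes and below 0 in 6, beside a median of all measured features between -0.10 and -0.02 in every class but the neutrophil-like, where it was -0.69. The median of the members was 0.31 in tumour-like cells (median bounds 0.04 to 0.67), 0.30 in NK-like, 0.28 in plasmacytoid dendritic-like and 0.21 in fibroblast-like cells. Median bounds are the medians of the members' own lower and upper bounds, and are no interval of the median itself. With gates read on thinned cells the fibroblast-like median was -0.36. The median was 0.05 in CD8 T-like (and -0.37 in those without naive markers) and 0.03 in C1q macrophage-like cells. It was -0.36 in monocyte-like cells (median bounds -0.72 to -0.07), -0.41 in regulatory T-like and -0.47 in conventional CD4 T-like cells. Conventional dendritic-like cells had -0.60 (and 0.33 with 1 more marker in the gate), neutrophil-like cells -0.68 and gamma-delta T-like cells -0.75.

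**Figure D4:**
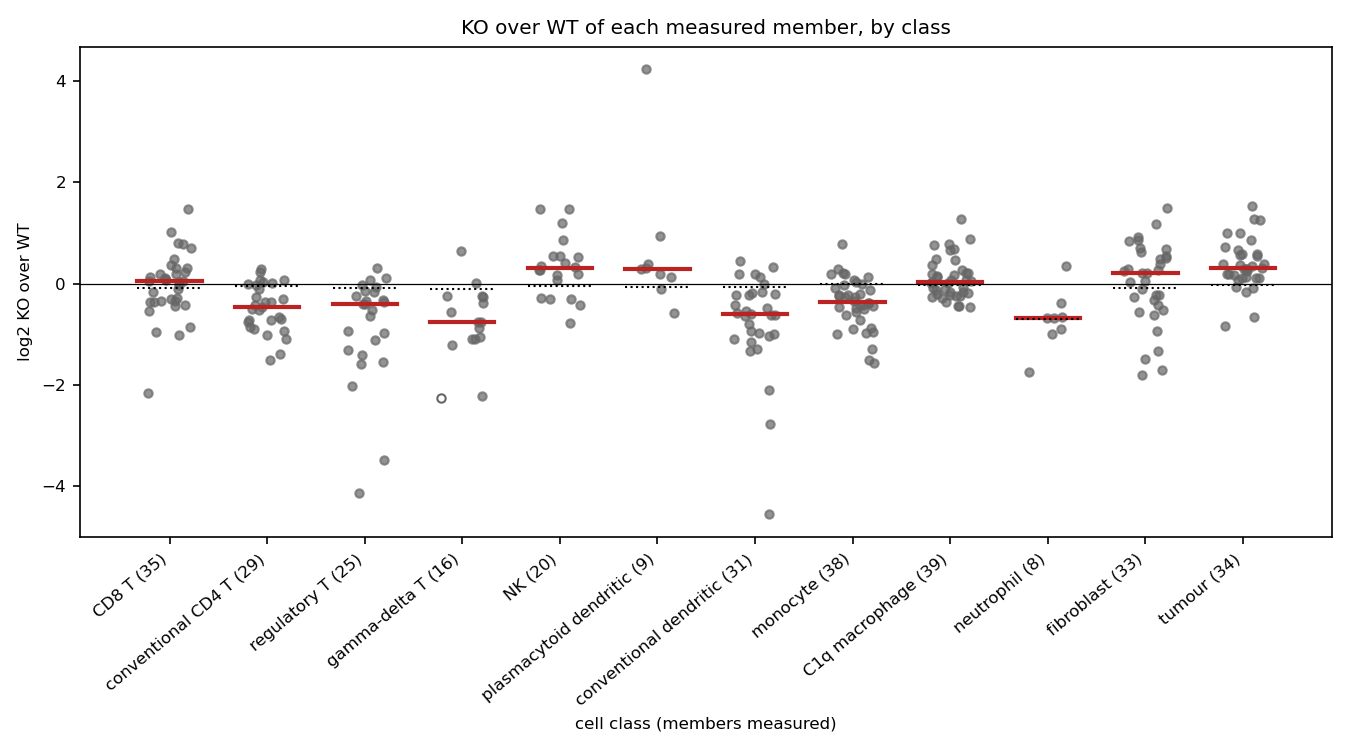
The log2 ratio of KO over WT (y axis) of each measured member (points) by class, with the median of the members as a red line, the median of all measured features dotted, and open points for bounds where 1 library had no UMI. Members of tumour-like cells lie mostly above 0 (median 0.31) and those of monocyte-like cells mostly below 0 (median -0.36), while those of C1q macrophage-like cells straddle it (median 0.03).

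Monocyte-like cells, the class with the highest share of strong cells, had 8 of 38 measured members higher in KO and 30 lower. For 21 of the 38 the interval lay wholly below 0, against 12.8% of all features, and for 2 wholly above, against 10.4%. At least 2-fold lower in KO were 3 members, against 2.9% of all features, and none was 2-fold higher, against 1.66%. Tumour-like cells had the other direction, with 29 of 34 members higher and 5 lower in KO. There 19 intervals lay above 0, against 18.4% of features, and 1 below, against 25.1%, while 3 members were at least 2-fold higher (1.58% of features) and none 2-fold lower (2.32%). C1q macrophage-like cells had 22 of 39 higher and 17 lower, with 12 intervals above (17.2% of features) and 11 below (21.7%). A single member was 2-fold higher there (3.49% of features) and none lower (1.78%).

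In CD8 T-like cells 19 of 35 members were higher and 16 lower in KO, with 2 at least 2-fold higher (3.2% of features) and 2 lower (4.55%). Their intervals lay above 0 for 4 members (10.7% of features) and below for 8 (22.9%). With immunoglobulin, mitochondrial and ribosomal protein genes left out of the total, every log2 was raised by 0.13 in CD8, 0.14 in conventional CD4 and 0.14 in gamma-delta T-like cells, and by less than 0.1 either way in the other classes. CD8 T-like cells then had 7 intervals above and 6 below, with 2 members at least 2-fold higher and 1 lower. Conventional CD4 T-like cells had 6 higher and 23 lower of 29, none 2-fold higher (5.08%) and 4 lower (6.33%), and 1 interval above (10.4%) against 14 below (18.0%), while the other total gave 9 higher and 20 lower. Regulatory T-like cells had 3 higher and 22 lower of 25, none 2-fold higher (2.17%) and 8 lower (4.23%), and no interval above (8.71%) against 11 below (13.8%). Gamma-delta T-like cells had 2 higher and 14 lower of 16, none 2-fold higher (3.34%) and 6 lower (10.1%), and 1 interval above (9.66%) against 6 below (16.3%). Conventional dendritic-like cells had 5 higher and 26 lower of 31, none 2-fold higher (2.26%) and 8 lower (3.79%), and 1 interval above (9.41%) against 14 below (16.5%). In these 4 classes, CD8 T-like cells not among them, the share of members lower in KO was above that of all features by both rules. With the other total, 2 of 29 conventional CD4 and 3 of 16 gamma-delta members were 2-fold lower, and 11 and 4 intervals lay below 0, so the 2-fold count in conventional CD4 T-like cells came close to the share of all features.

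NK-like cells had 15 of 20 members higher and 5 lower in KO, with 3 at least 2-fold higher (1.56% of features) and none lower (3.37%), and 7 intervals above 0 (7.15%) against none below (11.0%). Plasmacytoid dendritic-like cells had 7 of 9 higher, 1 of them 2-fold (5.11%), and none 2-fold lower (4.43%), with 2 intervals above (6.95%) and none below (9.89%). Fibroblast-like cells had 19 of 33 higher, 2 of them 2-fold (5.52%), and 4 at least 2-fold lower (6.24%), with 10 intervals above (14.9%) and 7 below (17.2%). Neutrophil-like cells, 39 and 20 of them, had 1 member higher and 7 lower of 8. There 1 member was at least 2-fold lower against 36.3% of all features, none was 2-fold higher (6.32%), 2 intervals lay below 0 (44.9%) and none above (9.02%), so the members did not exceed the background.

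Isg15, the ubiquitin-like modifier, was measured in all 12 compared classes, higher in KO in 5 and lower in 7. It stood at 732 CPM in WT and 722 in KO monocyte-like cells (log2 -0.02, and 0.01 with the other total), and at 262 and 289 in C1q macrophage-like cells (0.14). By the gates on all UMIs it was lower in KO T-like cells, at 98.7 and 73.1 in CD8 (-0.43), 207 and 145 in conventional CD4 (-0.51), 288 and 244 in regulatory (-0.24), and 137 and 64.6 in gamma-delta cells (-1.08). With gates on thinned cells it turned to 0.12 in both conventional CD4 and regulatory T-like cells. It was higher in KO in NK-like cells, at 44.4 and 103 CPM (1.21, interval 0.76 to 1.65), where a KO cell held 19 of 82 UMIs. Of thinned NK-like cells 6.91% in WT and 11.5% in KO had a UMI, and the interval of that difference included 0. Fibroblast-like cells had 125 and 202 CPM (0.70) and 12.4% and 23.4% of cells with a UMI, a difference of 11.0 points (2.43 to 20.5). Tumour-like cells had 55.4 and 83.0 CPM (0.58). Conventional dendritic-like cells had 237 and 163 CPM (-0.54, and 0.007 with 1 more marker in the gate), and neutrophil-like cells 1160 and 621 (-0.90).

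The largest Isg15 ratio, in plasmacytoid dendritic-like cells, rested on few cells. It stood at 12.3 CPM in WT, from 2 UMIs in 1 of 23 cells, and at 231 CPM in KO, from 122 UMIs in 15 of 100 cells, 98 of them in 5 cells (log2 4.23, interval 2.35 to 7.29). With gates read on thinned cells the log2 was 1.45, and with 1 more marker in the gate 1.47. In KO B-like cells 3.36% of thinned cells had an Isg15 UMI, against 48.9% of WT and 46.4% of KO monocyte-like cells, which places the latter far above a low class. Usp18, which removes ISG15 from proteins, was 6.46 and 11.1 CPM in C1q macrophage-like cells (0.78, 0.43 to 1.12) and 2.28 and 4.54 in tumour-like cells (1.0), but 30.3 and 16.6 in monocyte-like cells (-0.87). Herc6, the mouse ligase that attaches ISG15, was lower in KO in 8 of 10 classes measured, at 56.4 and 38.7 CPM in CD8 T-like (-0.54) and 79.8 and 37.6 in conventional dendritic-like cells.

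The Ifit genes, whose proteins bind foreign RNA and block its translation, differed in direction between the myeloid classes. In C1q macrophage-like cells all 5 measured were higher in KO, with a median log2 of 0.66, while in monocyte-like cells all 4 measured were lower, with a median of -0.76. Tumour-like cells had 3 of 3 higher, with a median of 1.27. That median was the value of Ifit3, which had a UMI in 16 WT and 18 KO cells. A single KO cell held 41 of its 100 KO UMIs. Ifit3 was 6.58 CPM in WT and 10.4 in KO C1q macrophage-like cells (0.66), yet 1.31% and 1.18% of thinned cells had a UMI. It was 28.9 and 18.7 in monocyte-like (-0.63), 1.86 and 4.49 in tumour-like (1.27), 21 and 26.1 in CD8 T-like (0.31) and 48.8 and 17.3 in conventional CD4 T-like cells (-1.50). The last rested on 8 WT and 18 KO cells and turned to 0.53 with gates on thinned cells, while the CD8 value turned to -0.25 with those gates and to -0.50 without naive-marker cells.

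In several classes Ifit3 had too few UMIs for a measured ratio. It stood at 16.4 and 4.80 CPM in regulatory T-like cells, from 15 and 4 UMIs, at 4.49 and 1.03 in conventional dendritic-like, at 0.956 and 3.76 in NK-like, and at 6.14 CPM and no UMI in plasmacytoid dendritic-like cells. Gamma-delta T-like cells had 17 UMIs in WT and none in KO, 2.46-fold lower with KO set at a floor of 3 UMIs (upper bound of log2 -0.84). The log2 was 0.78 with gates on thinned cells. Neutrophil-like cells had 15.2 CPM in WT and no UMI in KO. In fibroblast-like cells Ifit3 was 29.6 and 10.5 CPM (-1.49), but a single WT cell held 64 of 108 UMIs, and without the top cell of each library the log2 was -0.73. Ifit3b there was 8.50 and 2.43 CPM (-1.81), with 27 of 31 WT UMIs in a single cell, and turned to 0.57 without it.

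Ifit1 was the Ifit gene with the widest range of ratios. In fibroblast-like cells it was 29.1 CPM in WT and 81.7 in KO (1.49, 1.08 to 1.90), with a UMI in 3.81% and 11.7% of thinned cells, a difference of 7.90 points (2.0 to 15.4). Tumour-like cells had 2.31 and 6.69 CPM (1.53), and 1.35 without the top cell. Regulatory T-like cells had 53.6 and 13.2 CPM (-2.02), gamma-delta T-like cells 35.9 and 7.76 (-2.21), and conventional dendritic-like cells 12.1 and 0.515, from 35 and 1 UMIs (-4.55, and -2.23 without the top cell). Ifit1bl1 was measured in 4 classes and was 7.55 and 2.67 CPM in monocyte-like cells (-1.50). Ifit2 was 39.5 and 21.4 CPM in monocyte-like cells (-0.89), while 3.6% and 3.63% of thinned cells had a UMI, and 7.23 and 12.4 CPM in CD8 T-like cells (0.78, but -0.0072 with gates on thinned cells and -0.12 without naive-marker cells). The fibroblast-like difference in Ifit1 thus also stood in the share of cells, and the monocyte-like difference in Ifit2 did not.

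The Oas genes, which make the second messenger that starts RNase L or are related to those enzymes, were lower in KO for 5 of 5 in monocyte-like cells (median log2 -0.39) and higher for 3 of 3 measured in CD8 T-like cells (median 1.02). Oas2 was 29.4 and 15 CPM in monocyte-like cells (-0.97), with a UMI in 6.43% and 2.42% of thinned cells, a difference of -4.01 points (-6.22 to -0.916). Oasl2 was 3.62 and 9.99 CPM in CD8 T-like cells (1.47), and Oasl1 3.62 and 7.31 (1.02). Without naive-marker cells Oasl2 there turned to -1.38. Oasl1 was at its highest in C1q macrophage-like cells, at 321 and 298 CPM (-0.11). In regulatory T-like cells it was 94.1 and 8.40 CPM (-3.49), but -0.43 without the cells of highest doublet score and 1.03 with gates on thinned cells. Fibroblast-like cells had 13.2 and 4.05 CPM (-1.70). Oas1a was 19.3 and 5.06 CPM in conventional CD4 T-like cells, from 15 and 12 UMIs, too few to be measured. Oas2 was 2.65 and 1.48 CPM in tumour-like cells (-0.84). Oas3 was 41.4 and 25.1 CPM in monocyte-like cells (-0.72).

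Rsad2, which encodes viperin, was lower in KO in 8 of 10 classes measured, at least 2-fold in 6 of them. In monocyte-like cells it was 178 CPM in WT (169 to 188) and 73.3 in KO (61.5 to 86.6), a log2 of -1.28 (-1.55 to -1.03). That came from 1369 UMIs in 181 cells and 137 UMIs in 44 cells, and the log2 was -1.29 without the top cell of each library. After thinning, 104 of 917 WT cells (11.3%) and 29 of 248 KO cells (11.7%) had a UMI, a difference of 0.352 points (-3.73 to 5.32). The lower level in KO monocyte-like cells was thus not seen in the share of cells with a UMI. The share of cells with an Rsad2 UMI was 1.36% and 1.46% in tumour-like cells and 0.412% in KO B-like cells.

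Viperin RNA in C1q macrophage-like cells went the other way, at 85.5 and 98.6 CPM (0.21), but a KO cell held 196 of 998 UMIs and the log2 without the top cells was -0.05. In regulatory T-like cells Rsad2 was 84.3 and 4.80 CPM (-4.13, -6.05 to -2.72), from 77 UMIs in 7 cells and 4 UMIs in 3 cells. Of the 77 WT UMIs 75 were in 5 cells and 38 in 1, 3.97% and 1.65% of thinned cells had a UMI, and the log2 was -1.11 without the cells of highest doublet score and -0.14 with gates on thinned cells. Gamma-delta T-like cells had 33 UMIs in 7 WT cells and none in KO. With KO set at the floor of 3 UMIs that was 4.77-fold lower (upper bound of log2 -1.88). CD8 T-like cells had 15.2 and 3.41 CPM (-2.15), conventional dendritic-like cells 17.6 and 2.57 (-2.77) and fibroblast-like cells 36.8 and 14.6 (-1.34).

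**Figure D5:**
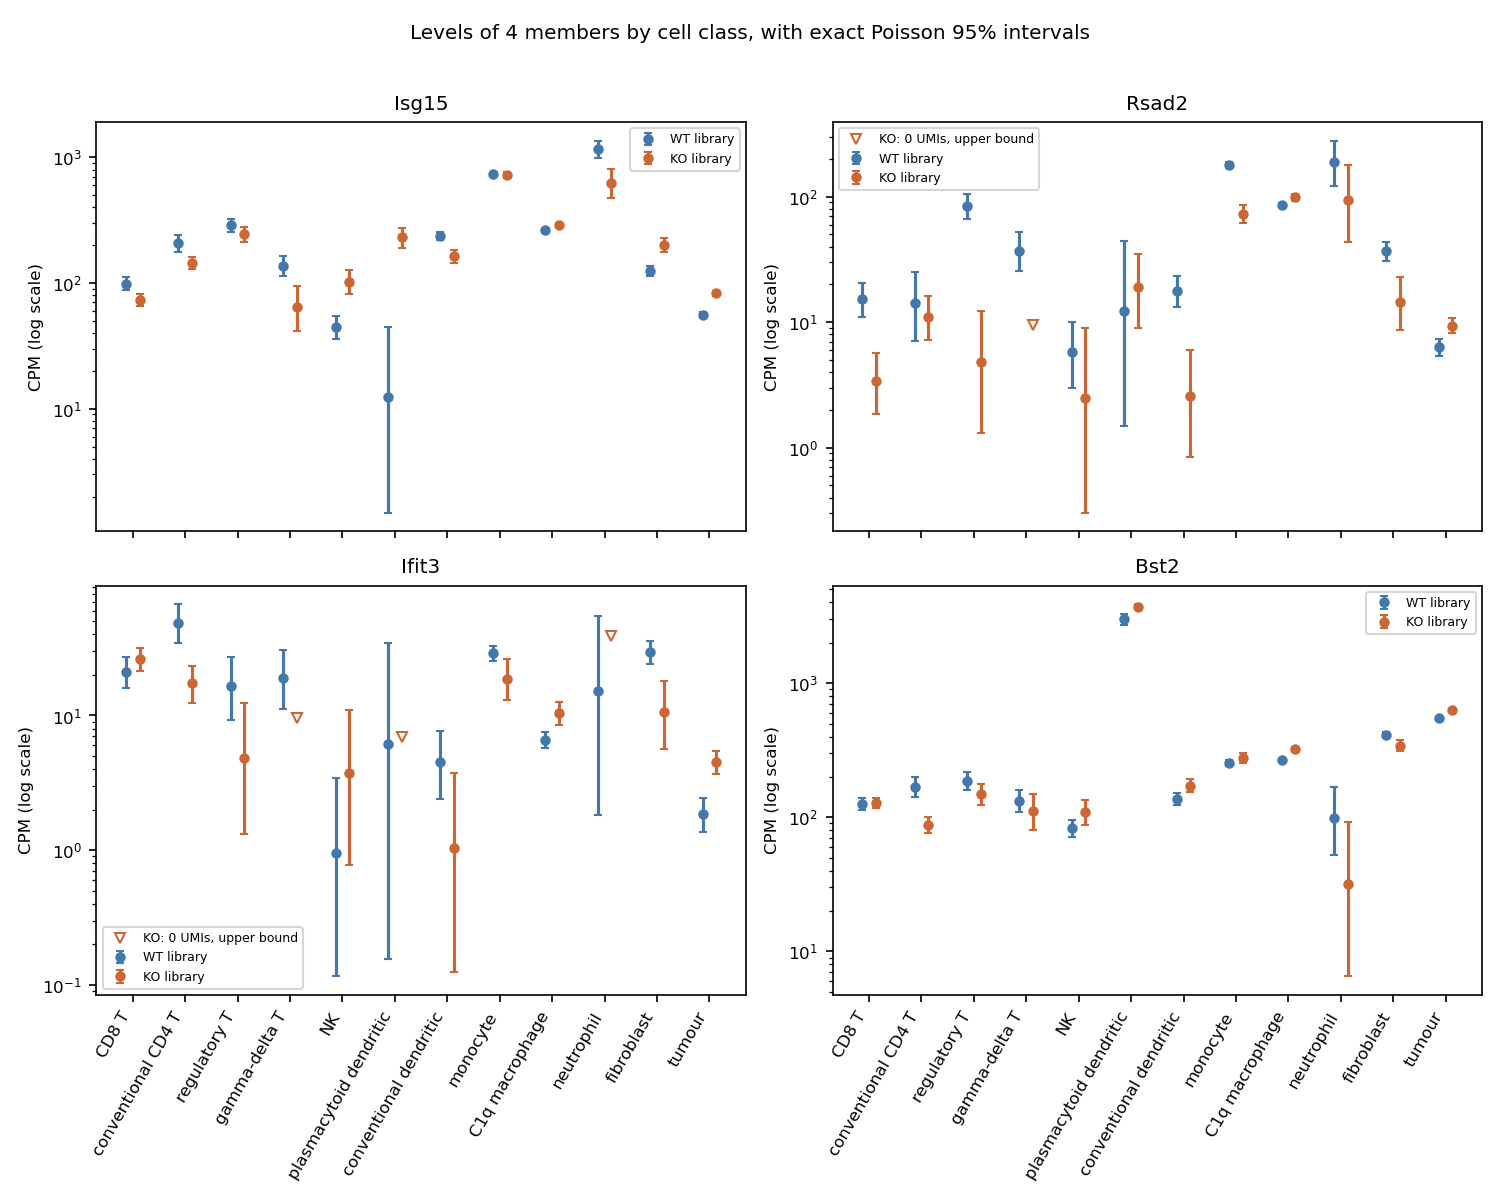
Level in CPM (y axis, log scale) of Isg15, Rsad2, Ifit3 and Bst2 by class in WT and KO, with exact Poisson 95% intervals, and open triangles at the upper bound where a class had no UMI. Rsad2 in monocyte-like cells is 178 CPM in WT and 73.3 in KO, Isg15 there is 732 and 722, and Bst2 is highest in plasmacytoid dendritic-like cells at 2991 and 3714.

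Among the other antiviral effectors, Mx1, a GTPase that traps viral particles, was lower in KO monocyte-like cells both by level and by share of cells. It stood at 36.6 and 12.3 CPM (-1.57, -2.25 to -0.96), with a UMI in 5.34% and 0.806% of thinned cells, a difference of -4.54 points (-6.29 to -2.09). It was 12.3 and 6.09 CPM in CD8 T-like cells (-1.01), and 18.6 and 1.20 in regulatory T-like cells, from 17 and 1 UMIs (log2 0.44 with gates on thinned cells). Bst2 marks plasmacytoid dendritic cells in the mouse, and 100% of WT and 98.8% of KO thinned cells of that class had a UMI (log2 0.31). It was next highest in tumour-like cells at 549 and 630 CPM, with a UMI in 61.6% and 68.0% of cells, a difference of 6.44 points (1.90 to 10.9). C1q macrophage-like cells had 34.9% and 41.3%, higher by 6.45 points in KO (3.09 to 9.84). Fibroblast-like cells had 46.2% and 34.2%, a difference of -12.0 points (-22.6 to -0.608), and conventional CD4 T-like cells 168 and 88.2 CPM (-0.93, but 0.0813 with gates on thinned cells), while conventional dendritic-like cells had 136 and 172 CPM (0.34).

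Samd9l, a restriction factor that slows protein synthesis, was lower in KO in all 10 classes where it was measured, with the interval below 0 in 6. No other member had a single direction in every class where it was measured. Samd9l kept its direction there also when immunoglobulin, mitochondrial and ribosomal protein genes were left out of the total. It was 60.1 and 44.9 CPM in monocyte-like, 38.9 and 28.2 in C1q macrophage-like, 87.1 and 70.9 in CD8 T-like, 84.7 and 51.9 in conventional CD4 T-like and 95.2 and 38.4 in regulatory T-like cells. The values were 95.4 and 41.4 in gamma-delta T-like, 87.0 and 70.1 in NK-like and 20.7 and 14.9 in conventional dendritic-like cells. Fibroblast-like cells had 33.7 and 23.5, and tumour-like cells 25.5 and 24.1. Neutrophil-like cells, where Samd9l had too few UMIs to be measured, went the other way. Its KO level there was 169 CPM (96.3 to 274), while no compared WT class was above 95.4. Cmpk2, the neighbour of Rsad2, was 6.83 and 11.7 CPM in C1q macrophage-like cells (0.77) and 26.4 and 13.4 in monocyte-like cells (-0.98). Isg20, an exonuclease, was 8.60 and 13.7 CPM in C1q macrophage-like cells (0.68), with a UMI in 1.55% and 3.0% of thinned cells. Rtp4 was 7.65 and 21.3 CPM in NK-like (1.48), 7.77 and 18.6 in tumour-like (1.25) and 11.0 and 2.57 in conventional dendritic-like cells (-2.10). Zbp1, a sensor of Z-form nucleic acid, was 181 and 222 CPM in monocyte-like cells (0.30), 1 of the 8 members higher there in KO, and it was 121 and 31.6 CPM in neutrophil-like cells, from 16 and 3 UMIs. Ifi44 was measured in 4 classes. Its highest level was in plasmacytoid dendritic-like cells, where it had too few UMIs to be measured, at 18.4 CPM in WT (3.80 to 53.8) and 34.0 in KO (20.2 to 53.8). In WT that interval overlapped the interval of the second class.

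Eif2ak2, the kinase PKR that stops translation on double-stranded RNA, was lower in KO in 8 of 11 classes measured. In tumour-like cells it was higher, at 31.5 and 40.7 CPM (0.37), with a UMI in 5.10% and 10.3% of thinned cells, a difference of 5.24 points (2.72 to 7.84). Of the RNA sensors, Ifih1, which encodes MDA5, was 109 and 92.4 CPM in C1q macrophage-like cells (-0.24) and 53.5 and 26.3 in conventional dendritic-like cells (-1.03). Ddx60 was 41.1 and 15.6 CPM in conventional CD4 T-like cells (-1.40), with a UMI in 8.45% and 3.57% of thinned cells. In gamma-delta T-like cells Ddx60 had 14 UMIs in WT and none in KO. With KO set at the floor of 3 UMIs that was 2.02-fold lower (upper bound of log2 -0.53). Dhx58, which encodes LGP2, was higher in KO in 3 of 5 classes measured. Fibroblast-like cells, not among them, had 1.92 and 9.71 CPM, from 7 and 12 UMIs. In tumour-like cells all 3 sensors were higher in KO, with a median of 0.38.

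Of the 7 signalling and nuclear factors, all were higher in KO in tumour-like cells (median log2 0.29), and 6 of 7 were lower in monocyte-like cells (median -0.27). Stat2, the subunit particular to ISGF3, was lower in KO in 8 of 11 classes, at 56.6 and 42.2 CPM in monocyte-like cells (-0.42) and 15.3 and 18.3 in tumour-like cells (0.25). Parp14, an ADP-ribosyltransferase, was lower in 7 of 10, at 94.8 and 69.6 CPM in C1q macrophage-like cells (-0.45), with a UMI in 17.1% and 13.3% of thinned cells. Xaf1 was 14.3 and 40.1 CPM in NK-like cells (1.48), with a UMI in 2.66% and 6.47% of cells. Trim30a, a brake on inflammatory signalling, was 155 and 128 CPM in monocyte-like cells (-0.27), with a UMI in 22.6% and 15.3% of cells, a difference of -7.25 points (-12.1 to -1.61). Phf11b was 112 and 38.4 CPM in regulatory T-like cells (-1.54), with a UMI in 21.4% and 9.92% of cells. Phf11d was 15.1 and 34.0 CPM in fibroblast-like cells (1.17), and Parp9, the partner of Dtx3l, 40.9 and 26.7 there (-0.61).

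The Ifi200 genes, which encode nuclear DNA-binding proteins, were 2 of 2 higher in fibroblast-like cells, with Ifi203 at 270 and 434 CPM (0.68), its highest class. Ifi204 was 371 and 351 CPM in monocyte-like cells (-0.08) and 280 and 84.3 in neutrophil-like cells (-1.74). In NK-like cells it was 4.30 and 15 CPM, from 9 and 12 UMIs, too few to be measured. Among the Schlafens, which restrain lymphocyte growth or viral translation, CD8 T-like cells had 3 of 3 higher in KO, with Slfn1 at 86.8 and 108 CPM (0.31; 140 and 161 in monocyte-like cells) and Slfn5 at 7.95 and 13.9 (0.80). Without naive-marker cells Slfn5 there turned to -0.84. Slfn5 in monocyte-like cells was 170 and 120 CPM (-0.51), with a UMI in 22.9% and 13.7% of thinned cells, a difference of -9.19 points (-13.9 to -3.70). Slfn8 in neutrophil-like cells had 10 UMIs in WT and none in KO. With KO set at the floor of 3 UMIs that was 2.40-fold lower (upper bound of log2 -0.69).

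Ifi27l2a, a small membrane protein of mitochondria, was at its highest in regulatory T-like cells, at 1708 CPM in WT and 1631 in KO (-0.07, and 0.01 with the other total). In monocyte-like cells it was 1495 and 1181 CPM (-0.34), with a UMI in 81.2% and 69.4% of thinned cells, a difference of -11.9 points (-18.3 to -5.87). C1q macrophage-like cells had 508 and 374 CPM (-0.44) and 49.2% and 40.9% of cells, a difference of -8.28 points (-11.7 to -4.84). Gamma-delta T-like cells went the other way, with 122 and 191 CPM (0.65) and 11.5% and 27.7% of cells, a difference of 16.2 points (5.15 to 28.7). Conventional CD4 T-like cells had 1036 and 1214 CPM (0.23) and CD8 T-like cells 415 and 329 (-0.34).

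By the share of thinned cells with a UMI, Usp18 in monocyte-like cells was at 5.23% in WT and 1.61% in KO, a difference of -3.62 points (-5.53 to -0.856), and Dhx58 there at 5.13% and 8.47%, a difference of 3.34 points (0.0512 to 7.66). In that class the interval of this difference lay below 0 for 6 of 39 members and above for 1. By level it was 21 and 2 of 38. In tumour-like cells it lay above 0 for 4 of 39 and below for 1, while by level it was 19 and 1 of 34. The same counts by share over all features were not made. Among all 39 members, leaving out the cell with the most UMIs of each gene kept 22 of 23 intervals clear of 0 in monocyte-like, 21 of 23 in C1q macrophage-like, 19 of 20 in tumour-like, 12 of 17 in fibroblast-like and 4 of 7 in NK-like cells.

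RNA of other cell types moved with some of these values and against others. In conventional CD4 T-like cells the 5 general myeloid markers, all detected, summed to 1855 CPM in WT and 373 in KO, and the macrophage markers to 303 and 90.7. In regulatory T-like cells the macrophage markers summed to 251 and 79.2 CPM and the myeloid markers to 1162 and 1372, and in conventional dendritic-like cells the macrophage markers to 596 and 199. Members were mostly lower in KO in those 3 classes, and the part of this RNA in the result was not tested. Macrophage markers were also lower in KO in NK-like cells (238 and 93.9 CPM) and tumour-like cells (87.1 and 34.7), where members were mostly higher. CD8 T-like cells, with members in both directions, had 176 and 93.6 CPM of them. In fibroblast-like cells, where Isg15, Ifit1, Ifi203 and Phf11d were higher in KO, the 9 macrophage markers, all detected, summed to 237 CPM in WT and 848 in KO, the 4 erythroid markers to 4.11 and 1442, the 8 tumour markers, of which 4 were detected, to 822 and 410, and the class's own 9 markers to 16679 and 38607. Dusp2 there was 75.2 CPM in WT and 34.8 in KO, above the KO level of the other host classes. The part of these in the fibroblast-like values was not tested. Igkc, an antibody chain made by the B cells that were plentiful in KO, ranged from 227 CPM in tumour-like to 1044 in plasmacytoid dendritic-like cells of the KO library. The neutrophil-like class differed by its own markers, at 32249 CPM in WT and 217563 in KO.

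The other genes of the pathway, a list of 53 with ligands, receptor chains, kinases, factors, brakes, sensors and further interferon-induced genes, did not follow the members in every class. Interferon alpha genes were at or near 0, with a single UMI of Ifna2 in WT tumour-like cells. Ifnb1, which encodes interferon beta, was 4.03 and 1.07 CPM in monocyte-like cells (-1.91), where the interval of its log2 included 0. In C1q macrophage-like cells Ifnb1 was 6.05 and 4.25 CPM (-0.51). The ligands listed also include Ifng, which encodes interferon gamma. A single ligand of the list was measured in CD8, conventional CD4 and gamma-delta T-like and in NK-like cells. The log2 was -0.54, -0.82, -1.001 and -0.55 in that order, each with its interval below 0. No class had a measured ligand higher in KO. The receptor chain Ifnar1 was 139 and 92.6 CPM in CD8 T-like cells (-0.58). Of the 4 brakes measured there 3 were higher and 1 lower in KO, with Socs1 at 61.1 and 159 CPM (1.38), Socs3 at 50.3 and 220 (2.13), Ptpn6 at 38.7 and 47.3 (0.29) and Ptpn2 at 88.2 and 86.7 (-0.02). More KO than WT cells of this class had a naive-marker UMI, and the part of that in the Ifnar1 and brake values was not tested. At least 2-fold higher in KO were 5 of 45 measured genes of the list in CD8 T-like cells, against 3.2% of all features, 3 of 46 in monocyte-like (1.66%), 0 of 49 in C1q macrophage-like (3.49%) and 5 of 45 in tumour-like cells (1.58%). In the same order 1 (4.55%), 2 (2.9%), 1 (1.78%) and 0 (2.32%) were 2-fold lower. Gamma-delta T-like cells had 3 of 41 higher (3.34%) and 11 lower (10.1%), conventional dendritic-like cells 0 of 45 (2.26%) and 6 (3.79%), conventional CD4 T-like cells 2 of 43 (5.08%) and 5 (6.33%), and regulatory T-like cells 2 of 42 (2.17%) and 2 (4.23%). NK-like cells had 2 of 41 higher (1.56%) and 1 lower (3.37%), plasmacytoid dendritic-like cells 3 of 29 (5.11%) and 0 (4.43%), fibroblast-like cells 3 of 42 (5.52%) and 2 (6.24%), and neutrophil-like cells 0 of 14 (6.32%) and 5 (36.3%).

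The further interferon-induced genes, 22 that also answer interferon gamma in many cells, had the other direction in monocyte-like cells. There 16 were higher and 6 lower in KO (median log2 0.33), while the 39 members had a median of -0.36. Cxcl9, a chemokine that draws T cells, was 302 and 856 CPM (1.50) and Gbp2, a guanylate-binding protein, 221 and 382 (0.79). In tumour-like cells both sets were mostly higher, with 20 of the 22 higher (median 0.58). Cxcl10 was 201 and 421 CPM there (1.07), Iigp1 12.7 and 34.0 (1.42), and Cxcl9 19.1 and 58.8 (1.62). In conventional dendritic-like cells 3 were higher and 19 lower (median -0.55), as the members were.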

How the data were processed

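RNA of 2 libraries, 1 WT and 1 KO, was measured. The authors deposited 1 matrix per library, whose values are whole counts of UMIs by feature and barcode. Per the submitters' processing notes the tools were Seurat (4.0.3, 4.0.4) and Cell Ranger 6.0.1, with the build mm10; per the file headers the matrices were written by Cell Ranger 8.0.1. Which annotation release was used, and whether strand was, is not given in the sources used. The libraries hold 113873249 and 101532711 UMIs in 9890 and 12744 barcodes, 31 of which occur in both.

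Cells under 200 genes or over 20% mitochondrial UMIs were removed. A class needed a fixed number of its markers with a UMI (3 of the T core genes, 3 NK, 3 B, 4 plasmacytoid, 4 conventional dendritic, 4 neutrophil, 5 fibroblast, 3 tumour, or 4 myeloid with 3 monocyte markers or 5 C1q UMIs). Cells meeting several gates (5.25% and 7.18%) were left out as possible doublets. Scrublet, run through scanpy 1.11.5, called 128 WT (1.31%) and 0 KO cells, so it was used as an alternative only, leaving out the top 8% of scores. Counts were summed per class and library. Levels carry exact Poisson intervals, ratios exact conditional intervals, shares Clopper-Pearson intervals and differences of shares Newcombe intervals, computed with scipy 1.17.1 and statsmodels 0.14.6. A side with 0 UMIs took a floor of 3 UMIs. Thinning drew 2000 UMIs per cell and left out shallower cells, 5.46% of WT and 18.4% of KO. The computation was tested on simulated data.

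In each class the up to 4 members per direction whose interval lay farthest from 0 at its nearest bound were named, with Isg15 and Ifit3 everywhere. Other members and the genes of the pathway list were chosen after their values were seen. The members and lists were chosen with earlier results of these data known. Alternatives changed the cell filter, gates, doublets, measured minimum, scaling, naive T cells, cut for a strong response and thinning.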

Additional observations from a re-analysis of the deposited data

How the results depend on the processing

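No paired analysis was possible because each genotype has 1 library with no replicates, and leaving out a replicate was not possible for the same reason. Of 98 medians under alternatives 5 changed sign. They were CD8 T-like with gates on thinned cells (-0.12), without naive-marker cells (-0.37) and with 1 more marker per gate (-0.01). The others were fibroblast-like with gates on thinned cells (-0.36) and conventional dendritic-like with 1 more marker (0.33, from 146 WT and 92 KO cells). That last value was the only median outside the median bounds of its first value. The monocyte-like median stayed below and the tumour-like above 0 under each alternative. Of 86 differences in the strong share 14 changed sign, 2 of them where the interval had excluded 0, both in tumour-like cells. With gates read on thinned cells the fibroblast-like share differed by -4.17 points and the tumour-like by -1.09. Among T cells without naive markers the conventional CD4 share differed by -16.4 points. Without thinning, which leaves the depth gap in, shares differed by -10.5 points in CD8 T-like, -9.19 in gamma-delta T-like, -0.773 in NK-like, -27.6 in plasmacytoid dendritic-like, -9.14 in conventional dendritic-like, -12.6 in C1q macrophage-like, -13.5 in fibroblast-like and -3.39 in tumour-like cells.

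Of 570 values of named genes 503 stayed within their interval, 55 left it, and 12 whose interval had excluded 0 changed sign. With gates on thinned cells the log2 was -0.0072 for Ifit2 in CD8 T-like cells; 0.53 for Ifit3, 0.0813 for Bst2 and 0.12 for Isg15 in conventional CD4 T-like cells; 1.03 for Oasl1 and 0.44 for Mx1 in regulatory T-like cells; and 0.78 for Ifit3 in gamma-delta T-like cells. Without naive-marker cells it was -1.38 for Oasl2, -0.84 for Slfn5 and -0.12 for Ifit2 in CD8 T-like cells. With 1 more marker Isg15 was 0.007 in conventional dendritic-like cells, and without its top cell Ifit3b was 0.57 in fibroblast-like cells. Beyond the settings' own construction, the cause was not tested. The other total changed the sign of 12 of 317 member values, each within 0.14 of 0. Depth left Ifit3b measured in 3 classes, and Ifit1bl1, Mx1, Oas2, Oas3 and Ifi44 in 4 each.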
